A study of Mus musculus with 8 samples.

Results

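The members described here are 9 genes of JAK-STAT signaling, taken by name: the transcription factors Stat2, Stat3, Stat4, Stat5a, Stat5b and Stat6, the kinases Jak1 and Jak2, and the feedback inhibitor Socs3. They are 9 of the 22485 genes named on the array and hold 22 of its 33026 named spots. The RNA came from the adrenal medulla, the catecholamine-secreting core of the adrenal gland, cut free from the cortex by hand. The study asked what the complete loss of SdhD, which encodes a membrane subunit of mitochondrial complex II (succinate dehydrogenase), does to gene expression in this tissue.

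Both groups carried 1 floxed and 1 null SdhD allele. SDHD-ESR mice also carried Cre-ER, a recombinase that tamoxifen switches on in many tissues rather than in chromaffin cells alone, while the +/- littermates lacked Cre. A pool of 8 +/+ littermates (1 floxed and 1 intact allele, no Cre) was the reference on every array. All animals were males of the 129/SvJ background, 10 weeks old, injected with 100 µg/g tamoxifen daily for 4 days and killed 7 days after the first injection. Each of the 8 arrays, 4 per group, held test RNA in Cy5 from 2 pooled mice against the reference pool in Cy3, and the dyes were not swapped. Each of 2 slides carried 2 +/- and 2 SDHD-ESR arrays (the first slide holds replicates 1 and 2, the second 3 and 4). Arrays are named by group and replicate number, and no label says that the numbers pair them. Every value below is a log2 ratio to the +/+ pool, so 0 means as much signal as in the pool, and no ratio gives a transcript's level. In whole tissue, fewer cells of a type and less RNA per cell cannot be told apart.

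Cytokine receptors of this pathway have no kinase of their own. JAKs bound to them phosphorylate the receptor and then the STATs, which pair, enter the nucleus and bind DNA. SOCS proteins, whose genes are STAT targets, shut the receptor down again. STAT3 serves the interleukin-6 and leptin families, STAT2 the type I interferons, STAT4 interleukin-12, STAT5A and STAT5B growth hormone, prolactin and many haematopoietic cytokines, and STAT6 interleukin-4 and interleukin-13. Cultured bovine chromaffin cells are known to respond to interleukin-6 and to interferons. The arrays measured transcripts only, not phosphorylation, where most of the control lies.

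Stat3 and Socs3 are the members whose values stood apart from the rest, and their promoters are therefore shown. The 2 windows of 300 bases, 250 before to 50 after the RefSeq start, were read 5′ to 3′ on the minus strand of GRCm38.p6 from RefSeq. The start used for Socs3 lies 970 bases inside the outer end of the annotated gene, so its window does not cover the start of the longest span, and that of Stat3 lies 54 bases inside. Capitals mark the letters that match the STAT motif TTCNNNGAA or its looser forms TTCNNNTAA and TTANNNGAA.
Socs3 (chr11:117969317-117969616): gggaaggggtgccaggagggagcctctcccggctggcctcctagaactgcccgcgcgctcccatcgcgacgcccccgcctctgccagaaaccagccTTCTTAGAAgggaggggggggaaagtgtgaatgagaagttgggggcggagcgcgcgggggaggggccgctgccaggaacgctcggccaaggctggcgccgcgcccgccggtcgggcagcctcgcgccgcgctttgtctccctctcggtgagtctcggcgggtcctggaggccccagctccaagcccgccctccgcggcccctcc
Stat3 (chr11:100939491-100939790): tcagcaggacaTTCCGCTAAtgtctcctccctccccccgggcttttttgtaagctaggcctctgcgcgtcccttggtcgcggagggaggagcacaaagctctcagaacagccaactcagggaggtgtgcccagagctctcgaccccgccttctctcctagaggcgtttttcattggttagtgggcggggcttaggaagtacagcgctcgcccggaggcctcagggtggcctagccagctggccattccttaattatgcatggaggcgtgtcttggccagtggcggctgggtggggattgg
Socs3 was the 1 member of 9 with TTCNNNGAA, which reads the same on both strands and occurs in 8.30% of the 32851 promoters in the table. Its copy, TTCTTAGAA, begins 154 bases before the start. Stat3 held the looser TTCCGCTAA 239 bases before the start, and Stat2 held TTCGGGTAA 188 bases before its own. Any of the 3 forms (the looser pair are each other's reverse complement) occurs in 17.6% of all promoters. Of the 12 promoters listed for the members, 1 start of Stat5b held both looser forms. They were TTACTGGAA, 124 bases before that start, and TTCCTGTAA, which begins at it. The promoters of Jak1, Jak2, Stat4, Stat5a and Stat6 held none. A match of letters is a description of the window, not evidence of a bound site.

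Along the genome, Stat5b (chr11:100780731-100859004), Stat5a (chr11:100859351-100885169) and Stat3 (chr11:100886806-100939594) lie side by side, and Socs3 (chr11:117966079-117970336) lies farther along the same chromosome. Stat6 (chr10:127642955-127660987) and Stat2 (chr10:128270498-128292853) share chromosome 10. Stat4 lies on chromosome 1, Jak1 on chromosome 4 and Jak2 on chromosome 19. All coordinates are GRCm38.p6.

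The targeted gene was read first. The deposited ratios carry the opposite sign, which would put Sdhd far above the pool in the mice that lost it, so every sign was turned, and Sdhd is for that reason no independent check of direction. Sdhd stood at -1.10, -2.25, -0.74 and -0.29 on the 4 +/- arrays and at -5.00, -6.19, -5.26 and -4.86 on the 4 SDHD-ESR arrays. The groups did not overlap, with a difference of -4.23 (SE 0.52, exact two-sided permutation p = 0.0286, the smallest that 4 arrays against 4 allow). Any 2 arrays correlated at 0.101 to 0.405 over named spots. The array medians ran from -0.198 (+/- 1) to 0.358 (+/- 4), and the median difference of all 19322 genes, SDHD-ESR minus +/-, was 0.22 for the first slide and -0.326 for the second. One array, SDHD-ESR 1, had a fault of layout: over 39.8% of its grid lines the values sat 1 line away from their spots, and over a further 15.0% they were mixed. Of the member spots, 12 lay in its aligned part, 3 in the mixed part and 7 in the shifted part. Values are given as deposited, and those with the shifted lines moved back are given beside each member they touch. The mixed lines of SDHD-ESR 1 are left out of the moved-back values.

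Stat3 had the largest positive difference between the groups among the 8 members tested. This factor drives the response to interleukin-6, leptin and related cytokines. Over its 11 spots the median on the +/- arrays was -0.01, 0.43, 0.01 and 0.18, and on the SDHD-ESR arrays 1.00, 0.75, 0.45 and 0.35. Of the 4 SDHD-ESR arrays 3 lay above every +/- array, and SDHD-ESR 4 lay below +/- 2, so the groups overlapped by 1 array. The mean was 0.15 ± 0.20 (SD, n = 4) in +/- and 0.64 ± 0.30 (SD, n = 4) in SDHD-ESR. The difference was 0.49 (SE 0.18), a level 140% of that in +/-, with an exact two-sided permutation p = 0.0571. Slide by slide it was 0.67 (first) and 0.30 (second). With each array centred on its median these became 0.46 and 0.63, so the sign was the same on each slide under either scaling.

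The repeated spots of Stat3 show how well this value was measured. The array carried 10 spots for the transcript NM_213659 and 1 for NM_011486, both RefSeq transcripts of Stat3. On 7 of the arrays the 10 repeated spots had an SD of 0.0272 to 0.104, far less than the spread between arrays. On SDHD-ESR 1 their SD was 0.567. There the 5 copies in the aligned part read 1.00 to 1.47 and the 1 in the mixed part 1.10, while the 4 in the shifted part read -0.23 to 0.56. Moved back by 1 line, those 4 read 1.08 to 1.33, with a median of 1.15, inside the range of the aligned copies. The difference between the groups was then 0.51. The single spot of NM_011486, in the aligned part, gave -0.59, -0.16, -0.98 and -0.10 in +/- and 0.65, 0.06, -0.00 and -0.36 in SDHD-ESR. It stood lower against the pool than the repeated spots in both groups, but its difference was alike, 0.54 (SE 0.29, exact permutation p = 0.143). The repeated spots share their RNA and are not replicates of the condition.

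**Figure D1:**
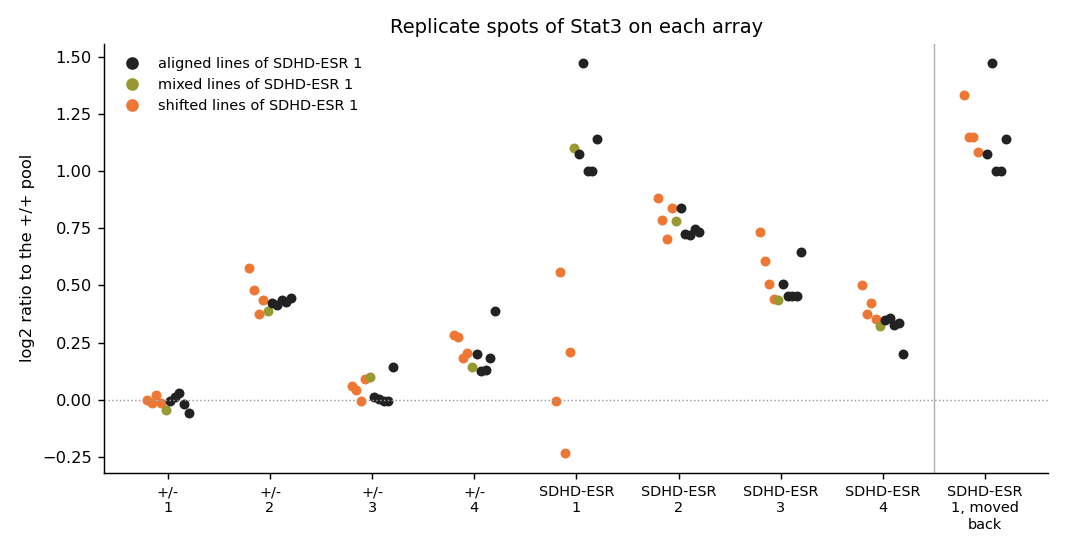
Log2 ratio to the +/+ pool (vertical axis) of the 10 repeated Stat3 spots on each array (horizontal axis), 1 point per spot, coloured by the part of SDHD-ESR 1 in which the spot lies. The 4 spots of the shifted part fall to between -0.23 and 0.56 on SDHD-ESR 1 as deposited and sit at 1.08 to 1.33 in the last column, where they were moved back by 1 line.

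Socs3, which binds gp130-type receptors and JAKs and is a classic STAT3 target, differed in the same direction. Its single spot, in the aligned part of SDHD-ESR 1, gave 0.17, 0.36, 0.28 and -0.17 in +/- and 1.16, 0.93, 0.18 and 0.16 in SDHD-ESR. The 2 SDHD-ESR arrays of the first slide lay above every +/- array, and the 2 of the second slide lay within the +/- range. The mean was 0.16 ± 0.23 (SD, n = 4) against 0.61 ± 0.51 (SD, n = 4). The gap of 0.45 had an SE of 0.28 and an exact permutation p = 0.257. Slide by slide it was 0.78 (first) and 0.11 (second), or 0.57 and 0.44 with each array centred.

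The kinases gave small negative differences. Jak1, which pairs with most class II and gp130 receptors, read -0.06, 0.44, 0.56 and 0.60 in +/- and -0.51, 0.63, 0.11 and 0.19 in SDHD-ESR. The low value on SDHD-ESR 1 lay in its shifted part and became 0.46 when moved back, which took the difference from -0.28 (SE 0.28, exact permutation p = 0.371) to -0.04. Jak2, the kinase of the growth hormone, prolactin and erythropoietin receptors, read -0.02, 0.17, 0.49 and 0.63 in +/- and 0.21, 0.37, 0.05 and 0.07 in SDHD-ESR, a difference of -0.15 (SE 0.17, exact permutation p = 0.4). All 4 SDHD-ESR values of Jak2 fell within the +/- range. The other kinases of the family behaved alike: Jak3, the kinase of the common gamma chain, had a difference of -0.20 (SE 0.20) and Tyk2, which serves interferon and interleukin-12 receptors, of -0.32 (SE 0.36) over 3 SDHD-ESR values.

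The STAT5 genes are close paralogs that act downstream of Jak2, and how far their spots cross-hybridise is not known here. Stat5a read 0.03, 0.63, 0.63 and 0.53 in +/- and 0.34, 0.86, 0.11 and 0.25 in SDHD-ESR, a difference of -0.07 (SE 0.22, exact permutation p = 0.8). Stat5b read -0.15, 0.78, 0.50 and 0.57 in +/- and -0.71, 0.92, 0.05 and 0.25 in SDHD-ESR over its 2 spots, a difference of -0.29 (SE 0.39, exact permutation p = 0.486). On SDHD-ESR 1 the Stat5a spot and 1 Stat5b spot were in the shifted part and the other Stat5b spot in the mixed part. Moved back, Stat5a read 0.06 and Stat5b 0.15 there, which gave differences of -0.14 and -0.08. The 0.15 is the shifted Stat5b spot alone, since the mixed one was left out, while other arrays hold the median of 2 spots. That spot read above the mixed one on every other array, so the moved-back Stat5b values are not fully alike. Over the 8 arrays the r between this pair was 0.729 as deposited and 0.957 after the move.

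Stat6, the factor of interleukin-4 signaling, was measured by 3 spots that disagreed in their ratio to the pool. Their median was -0.27, -0.07, 0.22 and 0.26 in +/- and 0.19, 0.13, -0.39 and -0.24 in SDHD-ESR, a difference of -0.11 (SE 0.19, exact permutation p = 0.543). The 3 spots had differences of -0.02, 0.01 and -0.16. Stat2, which acts downstream of the type I interferon receptor, read -0.53, 0.04, 0.05 and 0.49 in +/- and -0.18, 0.16, -0.12 and -0.58 in SDHD-ESR, a difference of -0.19 (SE 0.26, exact permutation p = 0.486). For both genes the SDHD-ESR arrays lay higher on the first slide, by 0.33 and 0.24, and lower on the second, by -0.56 and -0.62. Stat4, the interleukin-12 factor of T and natural killer cells, read -2.15, -0.26, -1.37 and -1.56 in +/- and had values on 2 SDHD-ESR arrays only, -1.96 and -0.89. It was below the pool wherever it was measured and was not tested.

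**Figure D2:**
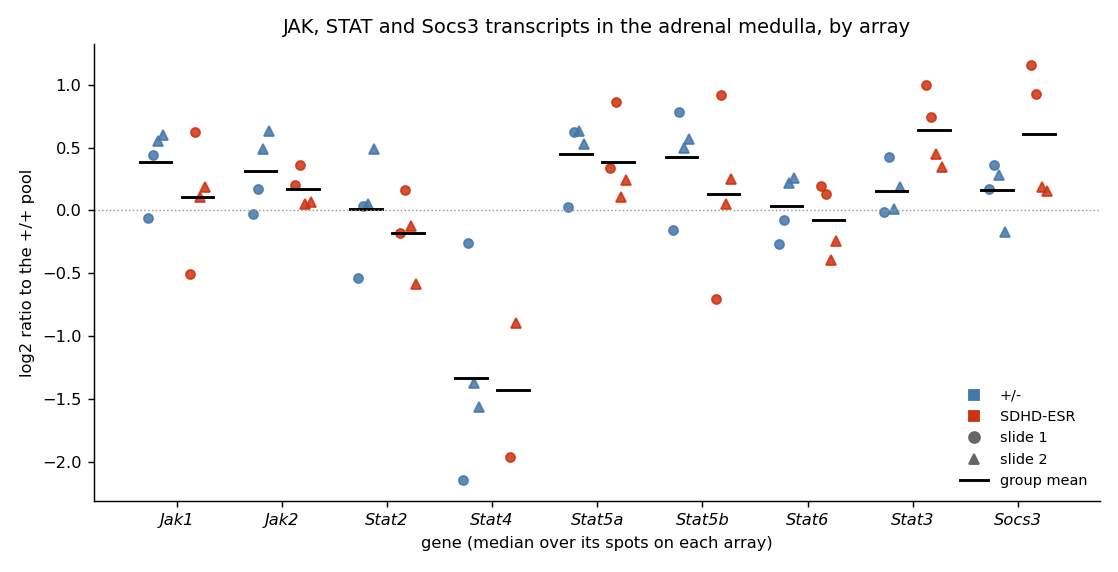
Log2 ratio to the +/+ pool (vertical axis) of the 9 genes (horizontal axis), as deposited, with 1 point per array, circles for the first slide, triangles for the second and black bars for group means. Stat3 has 3 of 4 SDHD-ESR arrays above every +/- array and Socs3 has 2, and Stat4 has only 2 SDHD-ESR values.

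In the fit across all 28073 spots tested with limma, none of the 21 member spots tested passed an adjusted p of 0.05 between SDHD-ESR and +/-, where 0.00% of all spots did (lowest adjusted p of a member 0.953). At an unadjusted p of 0.05 or less, 5 of 21 member spots were higher in SDHD-ESR and 0 lower, beside 1.81% higher and 2.80% lower of all spots. All 5 were Stat3 spots, with p from 0.0307 to 0.0498, and 4 of them lay in the aligned and 1 in the mixed part of SDHD-ESR 1. As repeats of 1 transcript they count as 1 gene. Without +/- 1, +/- 3, +/- 4 or SDHD-ESR 2 no member spot had such a p, and without any of the other 4 arrays 2 to 7 did. No member had every SDHD-ESR array above every +/- array, which 0.965% of spots valued on all 8 arrays had, and none had every one below, against 1.33%. Over the 8 genes, 6 differences were negative and 2 positive, with a median of -0.129, beside 57.4% negative and a median of -0.0524 over all genes.

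Against the +/+ pool, SDHD-ESR gave 11 of 21 member spots above it at an unadjusted p of 0.05 or less, beside 10.3% of all spots, and 0 below, beside 7.05%. Of the 11, 9 were Stat3 spots and the others were the spots of Socs3 (limma adjusted p = 0.196) and Stat5a (limma adjusted p = 0.270). None passed an adjusted p of 0.05, which 0.0427% of all spots did, and the lowest adjusted p of a member was 0.114, at a Stat3 spot. In +/- mice 3 member spots lay above the pool at an unadjusted p of 0.05 or less, beside 13.2% of all spots, and 0 below, beside 5.75%. They were Stat5a (limma adjusted p = 0.199), Jak2 (0.246) and 1 of the 3 Stat6 spots (0.179), and none passed the adjusted threshold, beside 0.00% of all spots. As deposited, Stat5a was thus above the pool at an unadjusted p of 0.05 in both groups, at 0.45 ± 0.29 (SD, n = 4) in +/- and 0.39 ± 0.33 (SD, n = 4) in SDHD-ESR. Its spot is in the shifted part of SDHD-ESR 1, and moved back the SDHD-ESR mean was 0.32 ± 0.37 (SD, n = 4). The pool was 1 sample in 1 dye, so the spread among +/+ mice and any dye bias are inside these values.

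The members fell into a pair and a larger set by their profiles over the 8 arrays. Stat3 and Socs3 correlated at r = 0.839, which placed Socs3 at rank 75 of the 16167 genes with a value on every array by likeness to Stat3. The 3 genes most like Stat3 were Fdps (r = 0.958), which makes farnesyl diphosphate in cholesterol synthesis, Senp2 (r = 0.944), a SUMO protease, and Lpin3 (r = 0.938), a phosphatidate phosphatase. The ranking used the values as deposited. Genes with spots in the shifted or mixed lines of SDHD-ESR 1 entered it with misplaced values on that array, and it was not redone after the move. The r of Stat3 and Socs3 was then 0.849. The other 6 members, Jak1, Jak2, Stat2, Stat5a, Stat5b and Stat6, correlated with one another at r from 0.2 to 0.96 (median 0.693 over 15 pairs). With Stat3 they correlated at -0.406 to 0.225. After SDHD-ESR 1 was moved back these ranges were 0.557 to 0.957 and -0.0907 to 0.307. Every one of these r shares the arrays, the reference pool and the array medians, and is given as a description.

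The median of those 6 was -0.10, 0.31, 0.49 and 0.55 on the +/- arrays and 0.01, 0.50, 0.05 and 0.13 on the SDHD-ESR arrays. The medians of all named spots on the same arrays were -0.20, -0.06, 0.23 and 0.36, then 0.00, 0.15, -0.11 and 0.05. Both were lowest on +/- 1 and highest on +/- 4. Stat3 minus the median of the 6, a contrast within each array that no shift of a whole array can alter, was 0.09, 0.12, -0.48 and -0.36 in +/- and 0.99, 0.25, 0.40 and 0.22 in SDHD-ESR. All 6 had negative differences as deposited, so taking their median away widens that of Stat3, here from 0.485 to 0.625. How many genes of the array would separate the groups in such a contrast was not counted. With SDHD-ESR 1 moved back, the Stat3 contrast on that array was 0.94. The same contrast for Socs3 was 0.27, 0.06, -0.21 and -0.72 in +/- and 1.15, 0.43, 0.13 and 0.03 in SDHD-ESR, where the groups overlapped. Stat3 and the 6 were set against each other after their values were seen, and no test was made.

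**Figure D3:**
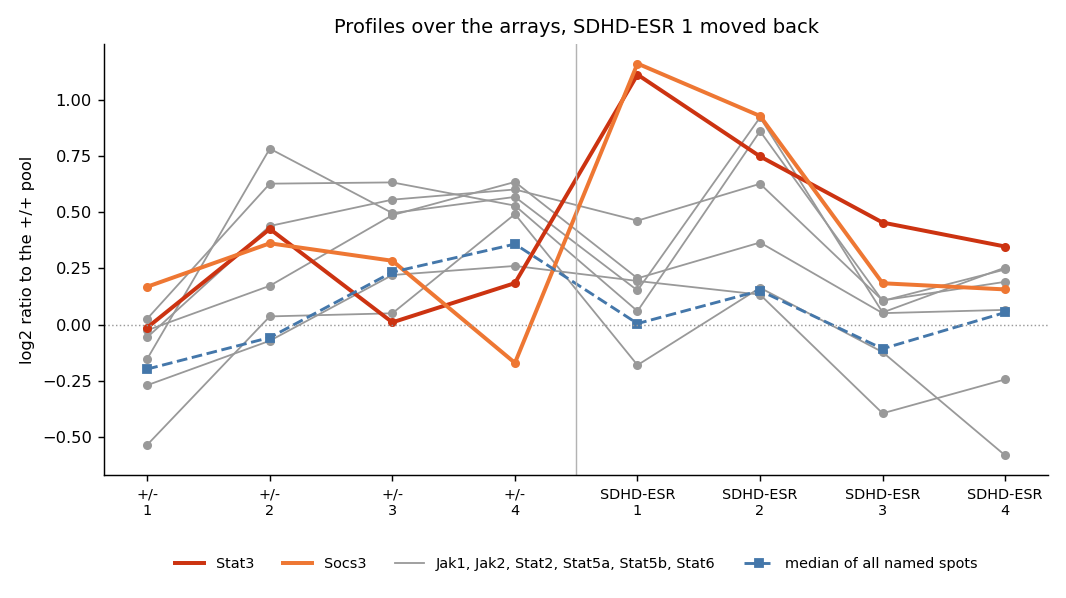
Log2 ratio to the +/+ pool (vertical axis) of the 8 tested genes on each array (horizontal axis), with SDHD-ESR 1 moved back, and the median of all named spots as deposited (dashed). Lines join the values of a gene only to guide the eye. Stat3 and Socs3 have their highest values on SDHD-ESR 1 and 2, up to 1.11 and 1.16, where the 6 other genes (grey) spread from -0.18 to 0.92.

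**Figure D4:**
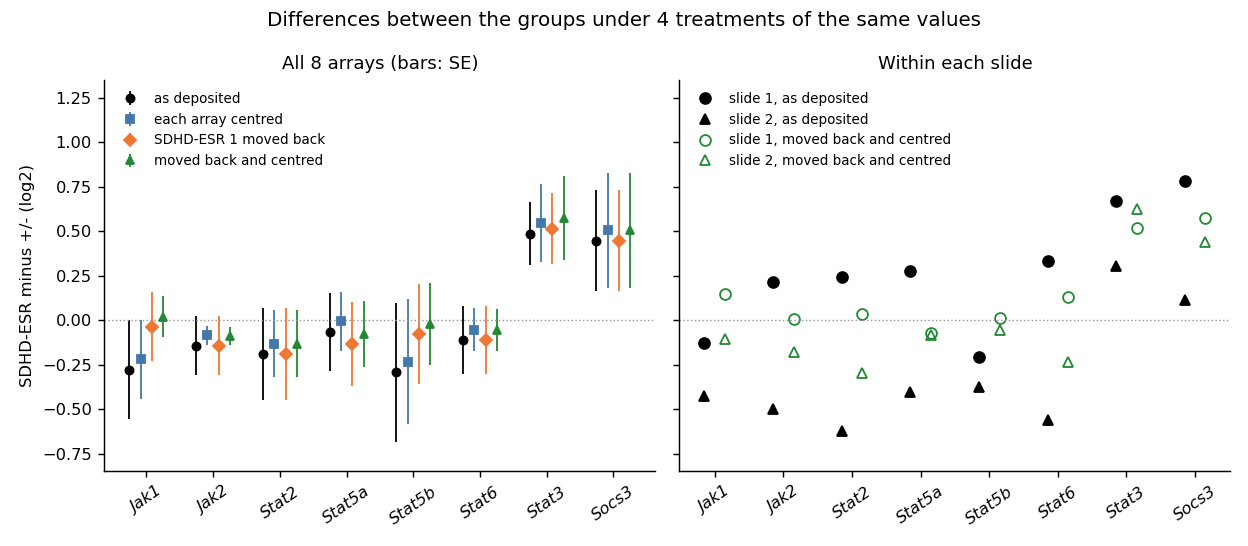
Difference of SDHD-ESR minus +/- in log2 (vertical axis) for the 8 tested genes (horizontal axis), over all arrays with SE bars under 4 treatments of the same values (left) and within each slide (right, circles for the first slide and triangles for the second). Stat3 and Socs3 lie above 0 throughout, and on the second slide the other 6 genes lie below 0 in both treatments shown.

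Around the members, 110 other genes of the pathway were measured of 122 listed. Of these, 65 were lower and 45 higher in SDHD-ESR, with a median difference of -0.105. At an unadjusted p of 0.05 or less on at least 1 spot, 7 genes were lower (6.36%) and 5 higher (4.55%), beside 3.47% and 2.41% of all 19322 genes, which had fewer spots per gene (1.45 against 1.95), and 0 passed the adjusted threshold. Those named in the next 3 paragraphs are Ptpn6, Il6ra, Il4ra, Ghr, Il10, Il4, Epo, Il12b and Igf1, each with a limma adjusted p of 0.953, and their exact permutation p is given for the gene's median over spots.

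Among the inhibitors, 9 of 17 genes were lower and 8 higher (median -0.0169, and 0.0237 with SDHD-ESR 1 moved back). Ptpn6, the phosphatase SHP-1 of blood cells, had a mean of -0.09 ± 0.11 (SD, n = 4) in +/- against -0.76 ± 0.47 (SD, n = 4) in SDHD-ESR. SDHD-ESR minus +/- was -0.67 (SE 0.24, exact permutation p = 0.0571). Socs1, Socs2 and Socs4 to Socs7 had differences between -0.35 and 0.08, and Cish, the CIS member of the family, had 0.37 (SE 0.35, exact permutation p = 0.457), with slide values of 0.84 (first) and -0.11 (second). Among the receptors, Il6ra, which binds interleukin-6, averaged 0.65 ± 0.13 (SD, n = 4) in +/- against 0.11 ± 0.25 (SD, n = 3) in SDHD-ESR. SDHD-ESR minus +/- was -0.54 (SE 0.14, exact permutation p = 0.0286, the smallest that 4 against 3 arrays allow). With whole numbers left out, Il6ra had no value on SDHD-ESR 1 as deposited, so this p leaves that array out. Its spot is in the shifted part of that array. Moved back, the difference was -0.41, and SDHD-ESR 1 then lay within the +/- range of 0.52 to 0.78. The groups thus overlapped once that array was counted, and the p does not cover that case. The shared subunit Il6st (gp130) had -0.30 (SE 0.28). Il4ra, the interleukin-4 receptor chain, gave a difference of 0.65 (SE 0.20, exact permutation p = 0.0571) over its 2 spots, and 0.92 moved back. Ghr, the growth hormone receptor, had -0.74 over 2 spots (exact permutation p = 0.257), and -0.54 moved back.

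Of the cytokine genes, 7 were higher and 6 lower (median 0.181, and 0.0325 with SDHD-ESR 1 moved back). Il10 (0.38 over 8 spots), Il4 (0.90 over 7 spots), Epo (1.31 at 1 spot, 3 values per group) and Il12b (0.73 over 5 spots) were higher in SDHD-ESR, with exact permutation p of 0.143, 0.0571, 0.1 (the smallest that 3 against 3 allow) and 0.343. The 4 lay below the pool in both groups, Epo at -1.94 ± 0.74 (SD, n = 3) in +/- and -0.62 ± 0.49 (SD, n = 3) in SDHD-ESR. Il6, the main STAT3 cytokine, had 0.89 (SE 0.89).

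Among target genes, the STAT3 list had 12 of 18 genes higher, with a median difference of 0.333, Socs3 among them. Its differences ran from -0.60 (Fgl2) to 0.83 (Saa3), 2 genes named here after their values were seen. On the first slide 17 of the 18 were higher, beside 68.5% of all genes, and on the second 6 of 18, beside 22.7%. With each array centred the counts were 14 and 10 of 18, beside 51.0% and 49.6%. Igf1, a STAT5 target, had -0.46 (SE 0.38, exact permutation p = 0.286). The medians of the STAT5, STAT6 and STAT4 lists were 0.0262, 0.097 and -0.0599.

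**Figure D5:**
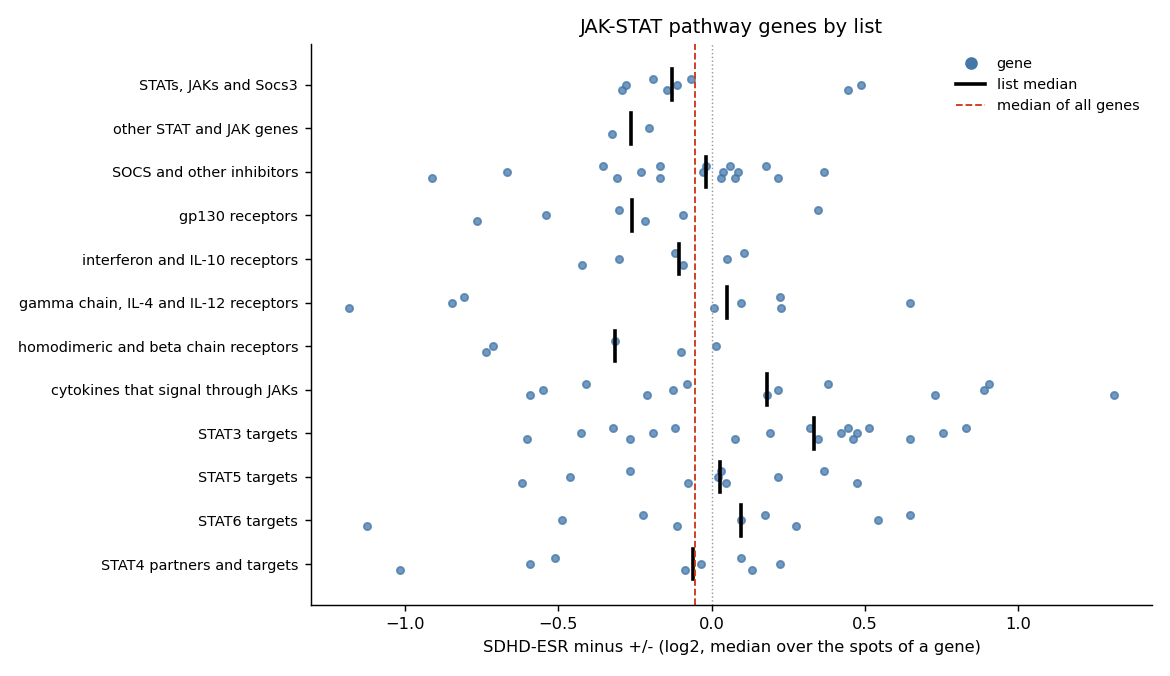
Difference of SDHD-ESR minus +/- in log2 (horizontal axis), as deposited, of the measured genes of 12 pathway lists (vertical axis), with 1 point per gene, a black bar for the median of the list and a dashed line for the median of all genes. The STAT3 targets have the highest median, 0.333, and the homodimeric and beta chain receptors the lowest, -0.314.

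Many markers of other cells were lower in SDHD-ESR, though 0 of their spots passed the adjusted threshold. All 15 leukocyte markers were lower in SDHD-ESR (median -0.453), with array medians of the list from -0.369 to 0.258 in +/- and from -0.660 to -0.210 in SDHD-ESR. The same held for 13 of 14 macrophage (median -0.55), 8 of 9 T cell (-0.0628), 5 of 8 B cell (-0.21), 11 of 12 endothelial (-0.23), 11 of 11 connective tissue (-0.687), 5 of 7 Schwann and sustentacular (-0.198) and 11 of 11 adipose markers (-1.14). Of all genes 57.4% were lower (median -0.0524), so the B cell count and the T cell median lay near the background. With each array centred the T cell median was -0.00426 and the B cell median -0.164. As deposited the slides differed in this, but so did all genes, with 68.5% higher on the first and 22.7% on the second. On the second, 15 of 15 leukocyte, 14 of 14 macrophage, 12 of 12 endothelial, 11 of 11 connective tissue and 10 of 11 adipose markers were lower. On the first slide 9 of 15 leukocyte, 10 of 14 macrophage and 8 of 11 connective tissue markers were lower, while 9 of 11 adipose, 7 of 12 endothelial and 6 of 8 B cell markers were higher. With each array centred, 13 of 15 leukocyte, 11 of 14 macrophage, 9 of 12 endothelial and 9 of 11 connective tissue markers were lower on the first slide. The second then had 15, 13, 9 and 11 lower. Adipose markers still differed, with 8 of 11 higher on the first slide and 10 of 11 lower on the second. Chromaffin markers had a median of -0.0704, with 7 of 11 lower, and cortex markers of 0.0513, with 5 of 10 lower. With each array centred, 10 of 11 chromaffin markers were lower on the first slide and 8 of 11 higher on the second. Of the cortex markers, 5 of 10 and then 9 of 10 were higher. As deposited, the cortex list had medians of -0.00543 to 0.00102 on the +/- arrays, whose own medians ran from -0.198 to 0.358. Why these ratios lay so near 0 was not tested. Ptpn6 and Il6ra differed in the direction of the leukocyte markers, and Stat3, Socs3 and Il4ra in the other. The part of these cells in any of the differences was not tested. Because only ratios were deposited, whether a marker was absent from the tissue was not measured.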

How the data were processed

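The authors deposited 1 log ratio of Cy5 to Cy3 fluorescence for each of 45220 spots on 8 adrenal medulla arrays, after their own scanning and image analysis. Neither the labels nor the methods give the background correction, the dye normalization or the log base, here read as log2. Rows are not in probe order: spots were named from the geometry of the grid, in which copies of 387 accessions had a median SD of 0.267, against 0.750 or more in 8 other layouts. Signs were turned, and whole numbers (9.54 to 15.6% of an array) were left out as stand-ins.

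Named spots with at least 3 values in each group (28073, with 4953 set aside) were fitted with limma 3.58.1 in R 4.3.3 (statmod 1.5.0), group means over all 8 arrays, with Benjamini-Hochberg adjustment. A gene's value is the median over its tested spots, compared by exact two-sided permutation over every order of the arrays with a value (70 for 4 against 4, 35 for 4 against 3, 20 for 3 against 3). Python 3.11.15, numpy 2.4.6, pandas 2.3.3 and matplotlib 3.10.9 did the rest. The main limma fit was tested on simulated ratios with known changes, and the permutation on a made-up case of separated groups. The alternative fits were not tested in this way. Precision is set by 4 arrays a group, each a pool of 2 separate mice.

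Members and lists were chosen with earlier results of these data known. Named are all members, Sdhd, up to 4 genes of each pathway list with the smallest unadjusted p of 0.05 or less, and the 3 genes most like Stat3. The result of 1 pathway list is not reported here. Alternatives covered scaling, filters, blocks, the layout of SDHD-ESR 1, the test and each array left out.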

Additional observations from a re-analysis of the deposited data

Results flagged for a closer look

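Of 16 groups of 4 values (8 tested genes in 2 groups), 1 held an array far from the others, where chance gives about 1 in 20 groups. Stat5a read 0.0265 on +/- 1, and the gap to the next +/- array was 0.83 of the whole range, just past Dixon's 95% critical value for 4 samples. The other 3 +/- arrays read 0.53 to 0.63. On the same array the median of all named spots was the lowest of the 8, at -0.198.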

How the results depend on the processing

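The difference of Stat3 ranged from 0.365 to 0.582 and that of Socs3 from 0.262 to 0.596 over 17 alternatives, with no change of sign. Not all of these could move them. Both blocks, values on all 8 arrays only and whole numbers kept returned the same 0.485 and 0.446. The spot of Socs3 is aligned, so moving lines back or keeping only aligned lines left it at 0.446 too. That of Socs3, from 0.446 to 0.262 without SDHD-ESR 1, and the 6 smaller differences were each moved by over 1.5 times when a single array was left out. Stat5a ranged from -0.224 to 0.0279, positive without SDHD-ESR 3, and Jak1 from -0.454 (without SDHD-ESR 2) to 0.0194, positive moved back and centred and -0.0767 without SDHD-ESR 1. With no change of sign, Stat2 ranged from -0.373 (without +/- 1) to -0.0309 (without +/- 4), Stat5b from -0.556 (without SDHD-ESR 2) to -0.0138 (without SDHD-ESR 1), Stat6 from -0.214 (without +/- 1) to -0.00714 (without SDHD-ESR 3) and Jak2 from -0.259 (without +/- 1) to -0.0397 (without +/- 4). The count of members lower in SDHD-ESR was 6, and 5 to 6 with each array left out in turn. No alternative moved it by over 1.5 times. Between SDHD-ESR and +/-, 0 spots of the array passed the adjusted threshold, 1 with each array centred, and 1 with SDHD-ESR 1 moved back and each array centred, a combination chosen after seeing the data. No member was among them, and the range without each array in turn was 0 to 0. At an unadjusted p of 0.05 the counts over all spots were 507 higher and 787 lower, against 875 and 795 with each array centred.

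For SDHD-ESR against the pool, 12 spots passed, 232 with each array centred, 485 after quantile normalization, 1 with the slide as a block, 77 with SDHD-ESR 1 moved back, 1460 moved back and centred, 1 by the methods' t-test, 0 with only the SDHD-ESR arrays in the fit, and 0 to 2 without each array in turn. Moved back and centred, 2 of the 21 member spots passed, both of Stat3 (adjusted p = 0.0394 and 0.0489). Of the other alternatives none brought a member past the adjusted threshold. For +/- against the pool, 0 spots passed, 833 after quantile normalization, and 0 to 3 without each array in turn. The cause of these moves was not tested.

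Whether the replicate numbers pair the samples is not settled by these values. Same-numbered arrays deviated together at r = 0.0755, 0.118, -0.00439 and 0.0339, and differently numbered ones at -0.137 to 0.047. All of these r were small, and SDHD-ESR 1 entered them as deposited. With the replicate number as a block, 1 spot passed for SDHD-ESR against the pool and 0 in the other 2 comparisons, and the 5 Stat3 spots with an unadjusted p of 0.05 or less between the groups became 0. Only ratios were deposited, so which spots stood near background is unknown.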
